A study of Mus musculus with 2 samples.

Results

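The forkhead (Fox) and Sox transcription factor genes were examined for H3K27me3 peaks in MEL, a mouse leukemia cell line. The 63 members are all protein-coding genes of the GENCODE vM21 annotation of the mouse genome (build GRCm38, the same as mm10) whose symbols begin with Fox, a letter and a digit, or with Sox and a digit. They comprise 44 Fox and 19 Sox genes among 21911 protein-coding genes, and the rule uses symbols alone. Chromatin immunoprecipitation followed by sequencing mapped H3K27me3, trimethylation of lysine 27 on histone H3, in 2 biological replicates, which form 1 group. The labels name no treatment, genetic change or time point and record neither age nor sex, so the comparisons below are between genes, between replicates and between peak lists. The labels do not say whether the replicates were separate cultures, and their spread may therefore be technical in part.

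H3K27me3 is laid down by Polycomb repressive complex 2 and is known for covering genes that are kept silent, in mammals above all the CpG-rich starts of developmental regulators. Forkhead factors bind DNA through a winged-helix domain and include the pioneer FoxA factors of the gut and liver, the insulin-regulated FoxO factors and the FoxP factors of lymphoid and neural cells. Sox factors bind the minor groove through an HMG box and govern stem cell, neural crest, cartilage, endothelial and testis fates, and a few of them act in red cell precursors.

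The 4 mm10 peak lists were the own list of each replicate, a list called on both together (pooled) and a list derived from these (replicated), which is the reference list here. On chromosomes 1 to 19, X and Y they held 70901 peaks for replicate 1, 106995 for replicate 2, 69721 pooled and 38298 replicated. Covered sequence was 16.1 Mb in replicate 1, 23.9 Mb in replicate 2 and 13.0 Mb in the replicated list, where the median peak was 278 bp wide. No read counts were used, so the depth of each library is unknown. Many peaks are weak: the deposited −log10 q-value reached 2 in 10.9% of the replicated peaks and 30.8% of those of replicate 1. A list of peaks for a repressive mark cannot show which genes the cells transcribe, and so the cell type was not checked by expression. Within 1 kb of the start, where 3% of all genes had a replicated peak, so did 1 of 18 erythroid markers (Slc4a1, the band 3 anion exchanger). The counts were 2 of 8 T-cell markers (Cd4 and Il7r), 3 of 7 myeloid markers (Csf1r, Cd14 and Lyz2) and none of 6 B-cell or 5 megakaryocyte markers. These counts depend on list and window: replicate 2 marked 1 B-cell and 1 megakaryocyte gene within 1 kb. In gene bodies the replicated list touched 1 erythroid, 3 T-cell, 4 myeloid, 2 B-cell and 2 megakaryocyte markers, beside 11.5% of all genes.

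Few Fox and Sox genes carried H3K27me3 peaks at their starts. A gene was counted as marked when at least 1 bp of a peak lay within 1 kb of its outermost annotated start. Of the 63 members, 3 were marked in the replicated list: Foxn1, the thymic epithelial regulator lost in nude mice, Foxo6, a FoxO factor of the brain, and Sox6, a SoxD factor that silences embryonic globin genes and acts in cartilage. That is 4.76% of members (95% exact Clopper-Pearson interval 0.993% to 13.3%), beside 3% of all protein-coding genes, so the share lay near the background. The interval covers counting error only, and genes are not replicates of a condition. The pooled list marked 4 members (6.35%, all genes 4.48%), the list of replicate 1 marked 3 (4.76%, all genes 4.46%) and the list of replicate 2 marked 6 (9.52%, all genes 6.28%). With only peaks of −log10 q of 2 or more, no member was marked within 1 kb, and 129 of all genes (0.589%) were.

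Within 5 kb of the start 11 members (17.5%, interval 9.05% to 29.1%) had a replicated peak, beside 10.4% of all genes. These were Foxe1, Foxi1, Foxn1, Foxn4, Foxo6 and Foxs1 among the Fox genes, 6 of 44 (13.6%), and Sox6, Sox10, Sox13, Sox18 and Sox30 among the Sox genes, 5 of 19 (26.3%). Both intervals in the plot of gene lists include the share of all genes. The count was 13 members in the pooled list (20.6%, all genes 14.2%), 14 in replicate 1 (22.2%, all genes 15.7%) and 13 in replicate 2 (20.6%, all genes 19.8%). The members' share was above that of all genes by a smaller margin in replicate 2 than in the other lists. Peaks in the gene body touched 7 members (11.1%, interval 4.59% to 21.6%) in the replicated list, beside 11.5% of all genes, and 8 in the pooled list (12.7%, all genes 15%), 8 in replicate 1 (12.7%, all genes 16.4%) and 10 in replicate 2 (15.9%, all genes 20.4%). Median gene length was 5.54 kb for members and 17.4 kb for all genes, and its part in the body counts was not tested.

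For 46 of the 63 members (73.0%) no list held a peak within 5 kb of the start or in the body, and the same was true of 69.6% of all genes, so the share lay near the background. The 46 include every gene of the FoxB, FoxC, FoxD, FoxF, FoxK and FoxL classes and of the SoxB1, SoxB2 and SoxC groups, among them Foxc1 and Foxc2 of mesoderm and vessels, Foxl2 of the ovary, and Sox1, Sox2 and Sox3 of neural progenitors. Sox9, the chondrocyte and Sertoli cell regulator, and Sox17, a factor of endoderm and fetal blood stem cells, also had none. Of the factors with known roles in blood, Foxo3 (red cell maturation), Foxm1 (mitotic entry), Foxp1 (B cells), Foxp3 (regulatory T cells), Foxo4 and Sox4 (lymphoid precursors) likewise had 0 covered bases in all 4 lists. Foxo1 had 140 bases in its body in replicate 2 only.

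**Figure D1:**
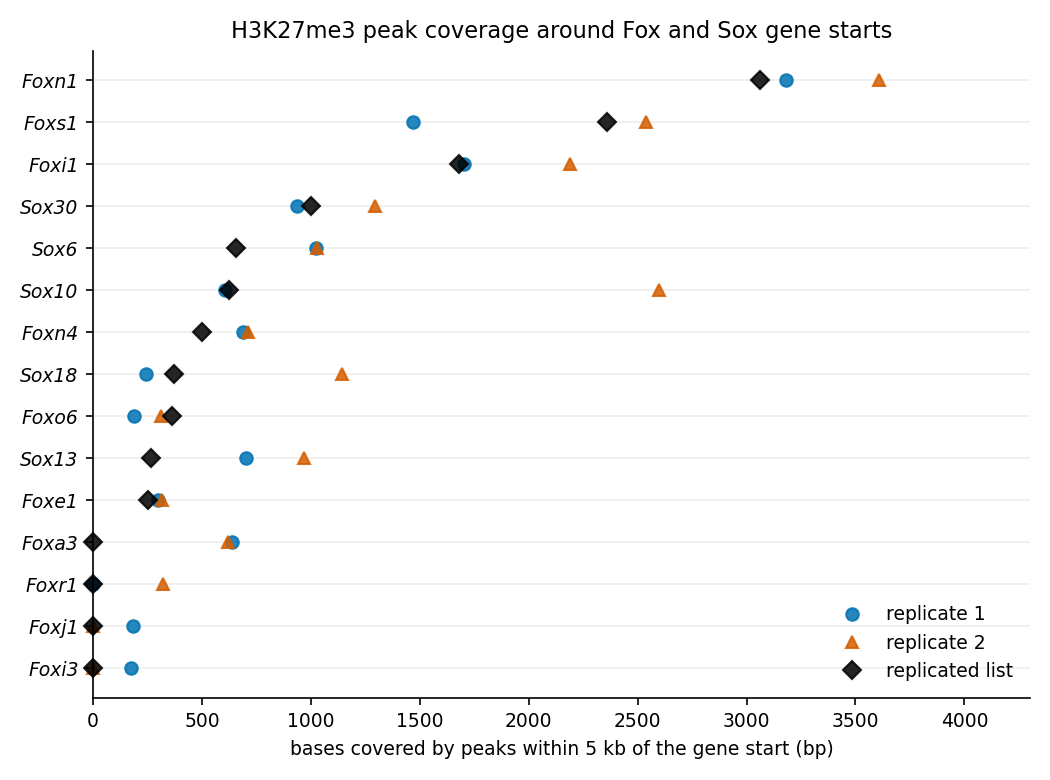
Bases covered by peaks within 5 kb of the gene start (x axis, bp) for the 15 Fox and Sox genes with at least 1 such base in either replicate, in the own list of replicate 1 (blue circles), of replicate 2 (orange triangles) and in the replicated list (black diamonds). Foxn1 is highest in each, at 3062 bp in the replicated list, and Foxa3, Foxr1, Foxj1 and Foxi3 have none there.

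Sequences under peaks at Foxn1, Foxo6 and Foxi1, and promoters of members with and without peaks, are printed here to show their CpG content, which is described further on. All are read 5′ to 3′ on the strand of the gene from build GRCm38, with CpG dinucleotides in capitals. The peak sequences come from the RefSeq genome sequence and each is the whole peak or 300 bases of it around its summit. The Foxn1 peak nearest the start lies at chr11:78385635-78385926, in an intron, and holds 4 CpG. The 1277-bp Foxn1 peak with the highest −log10 q holds 2 CpG in the window chr11:78379617-78379916, also intronic. The Foxo6 peak window chr4:120286332-120286631, intronic, holds 4 CpG, as does chr11:34203488-34203787 in the strongest Foxi1 peak, just past the 3′ end of that gene.
Foxn1 peak nearest the start: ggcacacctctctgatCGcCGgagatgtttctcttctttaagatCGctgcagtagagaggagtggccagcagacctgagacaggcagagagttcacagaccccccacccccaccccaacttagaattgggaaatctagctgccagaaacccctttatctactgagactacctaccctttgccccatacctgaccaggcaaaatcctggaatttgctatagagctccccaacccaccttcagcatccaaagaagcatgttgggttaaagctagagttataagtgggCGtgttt
Foxn1 strongest peak: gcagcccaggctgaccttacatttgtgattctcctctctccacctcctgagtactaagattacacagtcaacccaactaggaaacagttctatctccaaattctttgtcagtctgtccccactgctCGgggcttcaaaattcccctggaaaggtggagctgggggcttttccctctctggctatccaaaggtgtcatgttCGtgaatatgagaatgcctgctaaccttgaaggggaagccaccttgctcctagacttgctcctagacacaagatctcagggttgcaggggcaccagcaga
Foxo6 peak: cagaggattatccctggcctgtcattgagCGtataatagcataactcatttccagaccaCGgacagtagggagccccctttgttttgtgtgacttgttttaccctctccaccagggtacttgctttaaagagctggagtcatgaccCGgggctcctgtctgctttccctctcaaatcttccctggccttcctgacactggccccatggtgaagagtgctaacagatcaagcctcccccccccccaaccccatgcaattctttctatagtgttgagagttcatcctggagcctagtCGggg
Foxi1 strongest peak: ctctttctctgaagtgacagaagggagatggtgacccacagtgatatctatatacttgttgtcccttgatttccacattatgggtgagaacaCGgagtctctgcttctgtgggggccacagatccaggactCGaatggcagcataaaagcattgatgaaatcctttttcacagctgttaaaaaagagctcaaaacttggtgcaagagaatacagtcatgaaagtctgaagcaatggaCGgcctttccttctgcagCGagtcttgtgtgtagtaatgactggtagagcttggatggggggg

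RefSeq promoters, the 250 bases before the RefSeq start, were matched by symbol for 41 members, and 4 are shown (minus strand except Sox2). The Foxn1 promoter (chr11:78386609-78386858) has 7 CpG and no base under a peak in any list. The Sox6 promoter (chr7:116038745-116038994) has 9 CpG, and the replicated list covers 180 of its bases, replicate 2 covers 192 and replicate 1 none. These 180 bases belong to the 188-bp replicated peak at the Sox6 start. Its CpG observed over expected ratio of 0.630 and the promoter's 0.735 are thus largely read from the same bases. The other replicated peak within 1 kb of this start, 150 bp wide and further upstream, had a ratio of 0.461. The promoters of Sox2 (chr3:34649745-34649994, 27 CpG) and Sox11 (chr12:27342719-27342968, 17 CpG) are examples from CpG-rich members with no peak nearby. The Sox2 RefSeq start is 410 bp from the GENCODE start used for the peak counts. Members such as Foxe1 and Sox30, CpG-rich with a peak within 5 kb, and Foxr2, CpG-poor without one, are not shown.
Foxn1 promoter: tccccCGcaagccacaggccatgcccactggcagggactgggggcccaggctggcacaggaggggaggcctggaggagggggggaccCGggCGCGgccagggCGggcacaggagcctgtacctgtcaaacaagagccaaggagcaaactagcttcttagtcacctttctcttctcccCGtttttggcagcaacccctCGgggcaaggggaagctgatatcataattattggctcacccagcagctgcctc
Sox6 promoter: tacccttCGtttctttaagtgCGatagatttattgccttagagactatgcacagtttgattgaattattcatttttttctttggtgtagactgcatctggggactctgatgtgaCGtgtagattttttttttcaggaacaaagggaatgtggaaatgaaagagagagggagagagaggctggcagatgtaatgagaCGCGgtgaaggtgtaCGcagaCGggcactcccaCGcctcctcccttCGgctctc
Sox2 promoter: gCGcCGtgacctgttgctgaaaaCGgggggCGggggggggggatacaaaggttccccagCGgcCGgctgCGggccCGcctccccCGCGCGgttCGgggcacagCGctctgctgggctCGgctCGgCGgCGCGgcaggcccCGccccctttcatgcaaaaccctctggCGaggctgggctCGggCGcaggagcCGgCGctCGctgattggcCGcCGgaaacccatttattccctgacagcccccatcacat
Sox11 promoter: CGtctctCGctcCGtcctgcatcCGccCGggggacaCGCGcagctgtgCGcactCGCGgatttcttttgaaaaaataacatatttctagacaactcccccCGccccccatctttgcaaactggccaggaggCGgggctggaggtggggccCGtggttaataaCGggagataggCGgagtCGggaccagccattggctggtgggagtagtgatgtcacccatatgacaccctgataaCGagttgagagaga

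Foxn1 carried the most replicated H3K27me3 peak sequence of any member within 5 kb of the start and in the body, while within 1 kb Sox6 had more (338 bp against 292 bp). The gene spans chr11:78357577-78386558 on the minus strand. Within 5 kb of its start, peaks covered 3179 bp in replicate 1, 3609 bp in replicate 2, 3977 bp in the pooled list and 3062 bp in the replicated list. The replicates covered like amounts here, and 1604 bp lay under a peak in both. In the gene body the covered length was 9515 bp in replicate 1 and 10081 bp in replicate 2, with 6166 bp shared, and 10027 bp or 34.6% of the body in the replicated list. Replicated peaks up to 3 kb apart, when joined, formed 3 domains at Foxn1: 8168 bp in the 3′ part of the gene (64.2% of it covered), 7925 bp beginning 632 bp downstream of the start (60.4% covered) and 3409 bp upstream, reaching past the 5 kb window (67.5% covered). In the body or within 5 kb of the start were 23 replicated peaks. Within 1 kb of the start the replicated list covered 292 bp, all of it downstream, replicate 1 covered 480 bp and replicate 2 740 bp. The highest −log10 q of any of its replicated peaks was 4.02, 6791 bp downstream of the start.

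Foxi1, a regulator of ion-transporting cells in the inner ear and kidney, lay at the edge of the longest domain next to any member. The gene occupies chr11:34204338-34208089 on the minus strand, and a 33119-bp domain of 30 replicated peaks (chr11:34171364-34204482) overlaps its last 145 bp and runs on past its 3′ end. Of the 14456 domains in the replicated list, lone peaks counted as domains, 20, this one included, were at least as long. Within 5 kb of the Foxi1 start, peaks covered 1702 bp in replicate 1, 2187 bp in replicate 2 and 1678 bp in the replicated list, and both replicates had 893 bp in common. At the start the lists disagreed: replicate 2 had 204 bp and the pooled list 165 bp within 1 kb, while replicate 1 and the replicated list had 0.

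Foxs1, a small gene at chr2:152931898-152933208 on the minus strand, had 1467 bp within 5 kb in replicate 1, 2539 bp in replicate 2 and 2361 bp in the replicated list, all outside its body. Of its 7 replicated peaks 6 were upstream, in a 6549-bp domain that reaches into Dusp15, a phosphatase gene. The starts of both genes are 18490 bp apart, and the peaks cannot be assigned to either. Foxn4, a factor of retinal and spinal progenitors, had a 3184-bp upstream domain with 688 bp within 5 kb in replicate 1, 711 bp in replicate 2 and 502 bp in the replicated list, but only 140 bp common to both replicates. Foxe1, a thyroid factor, had a single replicated peak of 254 bp upstream, with 298 bp in replicate 1, 158 bp of them downstream of the gene, and 314 bp in replicate 2, all upstream. The replicates had 36 bp in common there.

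Foxo6 (chr4:120267079-120287349, minus strand) had a single 363-bp peak in its intron with a summit 855 bp downstream of the start. The deposited −log10 q was 0.77 for this peak, 2.29 for its counterpart in replicate 1 and 0.56 for that in replicate 2. Within 1 kb, 189 bp were covered in replicate 1 and 209 bp in replicate 2, and 115 bp of these were shared, the largest overlap at a member start. Foxn1 followed with 90 bp.

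**Figure D2:**
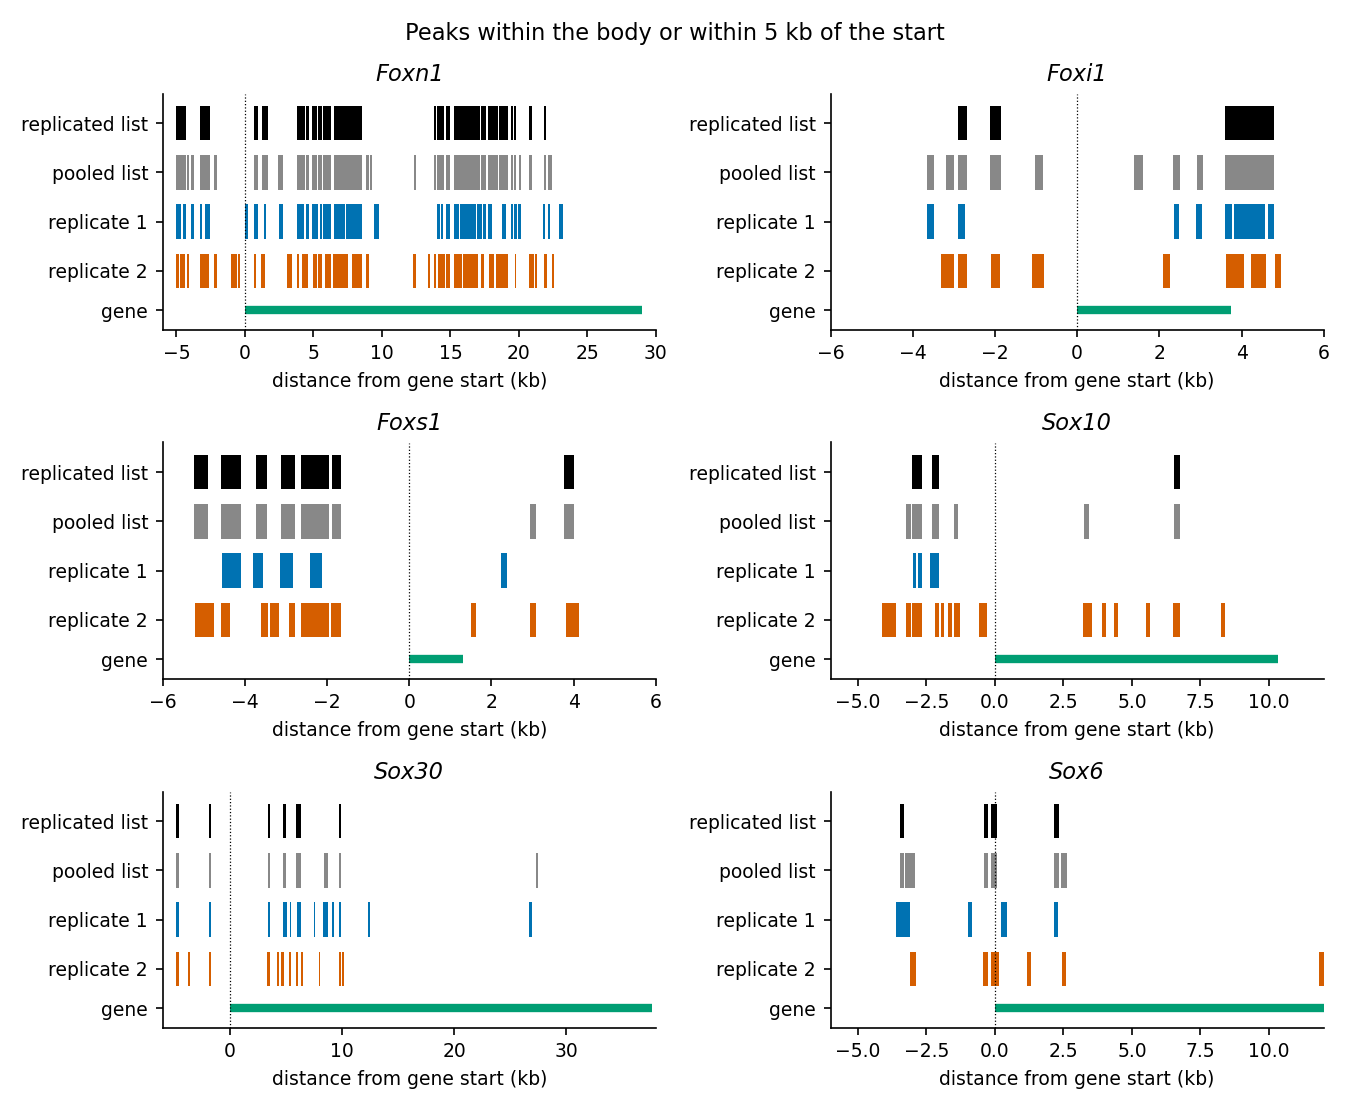
Peaks of each list (boxes: replicated black, pooled gray, replicate 1 blue, replicate 2 orange) that lie in the body or within 5 kb of the start of Foxn1, Foxi1, Foxs1, Sox10, Sox30 and Sox6, against distance from the gene start (x axis, kb, downstream positive); the green bar is the gene, cut at the panel edge. Foxn1 peaks fill 2 blocks of its body in every list, whereas those of Foxs1 lie beside its body and those of replicates 1 and 2 at the Sox6 start fall at different places.

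Sox6, which spans chr7:115470872-116038796 on the minus strand, was the only Sox gene marked in the replicated list; in replicate 2 Sox10 was marked too. Within 1 kb of its start 375 bp were covered in replicate 1, 505 bp in replicate 2 and 338 bp in the replicated list. No base there was covered in both replicates: the 338 replicated bases were all in the list of replicate 2 and none in that of replicate 1. The same held within 5 kb, where 1025 bp in replicate 1 and 1026 bp in replicate 2 shared 0 bp. Both replicated peaks within 1 kb of the start had a −log10 q of 0.22. The start of 1110004F10Rik, on the opposite strand, is 601 bp away, so the peaks lie at both genes. Sox6 is 568 kb long, and its body held 6483 covered bp in replicate 1, 14280 bp in replicate 2 and 2114 bp in the replicated list, with 646 bp common to both replicates.

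Sox10, the neural crest and Schwann cell factor (chr15:79154908-79165240, minus strand), had 607 bp within 5 kb in replicate 1, 2599 bp in replicate 2 and 624 bp in the replicated list. Its 5103-bp domain of replicated peaks begins 2027 bp upstream. Replicate 2 had 296 bp within 1 kb and 1165 bp in the body, and replicate 1 had 0 in both, with 220 bp of the body in the replicated list. Sox30, a factor of male germ cells (chr11:45980310-46017994, plus strand), had 938 bp within 5 kb in replicate 1, 1294 bp in replicate 2 and 998 bp in the replicated list, and both replicates had 666 bp in common. A 16653-bp domain ends 1702 bp upstream of its start, and 147 of 14456 domains, this one included, were at least as long. Its body held 2156 bp in replicate 1 and 1727 bp in replicate 2.

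Sox18, a factor of lymphatic and vascular endothelium, had 243 bp within 5 kb in replicate 1, all of them also in the 1144 bp of replicate 2, and 371 bp in the replicated list. Sox13, a SoxD factor known from T cells, had 703 bp in replicate 1 and 967 bp in replicate 2 but 38 bp in common, and 264 bp in the replicated list. Sox15 and Sox7 had no peak within 5 kb in any list.

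A further group of members had no replicated peak within 5 kb but had peaks in other lists, there or in the body. Of these only Foxa3 had a replicated peak in its body. Foxa3, a liver factor, had 639 bp within 5 kb in replicate 1 and 618 bp in replicate 2 with no base in common, and 0 in the replicated list, which covered 238 bp of its body. Its start is 839 bp from that of Sympk. Foxj1, the regulator of motile cilia, had 184 bp within 5 kb in replicate 1 and 164 bp in the pooled list, with a −log10 q of 4.28 in replicate 1. Both peaks lie upstream of Foxj1 and overlap another gene, Rnf157. Foxi3, of ectodermal placodes, had 175 bp in replicate 1 only, and Foxr1 had 321 bp in replicate 2 and 151 bp in the pooled list. Foxp4 had 174 bp in its body in replicate 1 only.

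The replicates named much the same members at 5 kb but often covered different bases. Of the members with a peak within 5 kb, 12 were in both own lists, which is 85.7% of the 14 in replicate 1 and 92.3% of the 13 in replicate 2, beside 83.7% and 66.7% for all genes. At 1 kb 3 were in both, 100% of those in replicate 1 and 50% of those in replicate 2, beside 70.4% and 50.1% for all genes, with Foxa3, Foxi1 and Sox10 in replicate 2 only. Over all members, the bases common to both within 5 kb were 40.2% of those of replicate 1 and 27.4% of those of replicate 2, and over all genes 37.7% and 28.2%. Within 1 kb the members shared 205 bp of 1044 bp in replicate 1 (19.6%) and 2047 bp in replicate 2, and the share of replicate 1 was 40.5% for all genes. Covered bases within 5 kb were higher in replicate 2 for 12 of 15 members with a base in either list. Across the 15 members Pearson's r between replicates was 0.852 and Spearman's rho 0.781. This is a description only, since the replicates have 1 control alignment in common and Foxn1 is highest in both. In replicate 1 it had 3179 bp, ahead of Foxi1 with 1702 bp, and in replicate 2 3609 bp, ahead of Sox10 with 2599 bp.

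The covered total was concentrated in few genes. Within 5 kb of the start the replicated list covered 177 bp per member against 90.7 bp per gene overall. In replicate 1 the means were 191 bp and 109 bp, and in replicate 2 they were 280 bp and 146 bp. Foxn1 gave 27.5% of the 11133 bp of the members, and Foxn1, Foxs1 and Foxi1 together 63.8%. Without these 3 the members' mean was 67.2 bp. The highest of all genes were not left out in the same way, so 67.2 bp cannot be set against 90.7 bp. In gene bodies Foxn1 gave 70.6% of covered member bases in the replicated list and 48.1% in replicate 1, while in replicate 2 Sox6 gave most, 46.8%, ahead of Foxn1. In the replicated list the covered share was 0.362% of member bodies against 0.524% for all genes. Without Foxn1 it was 0.107% of member bodies, for which all genes have no like value. The longest members other than Sox6 (Sox5 at 954 kb, Foxp1 at 597 kb, Foxp2 at 541 kb and Foxn3 at 374 kb) had no covered base in their bodies in any list.

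Foxn1, Foxi1 and Sox30 all lie on chromosome 11, where replicated peaks covered 1.86% of the sequence against 0.477% of the genome. Of the 7 members there, 3 had a peak within 5 kb, as did 20.7% of its genes. Without chromosome 11 the members with a peak within 5 kb were 8 of 56 (14.3%, all genes 9.51%) and those within 1 kb 2 of 56 (3.57%, all genes 2.72%), and the mean within 5 kb was 96.3 bp against 79.0 bp for all genes. Counts expected from the share on each member's own chromosome were 1.97 at 1 kb (3 observed), 6.79 at 5 kb (11 observed) and 7.32 in bodies (7 observed). The part of the chromosome in these values was not tested.

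**Figure D3:**
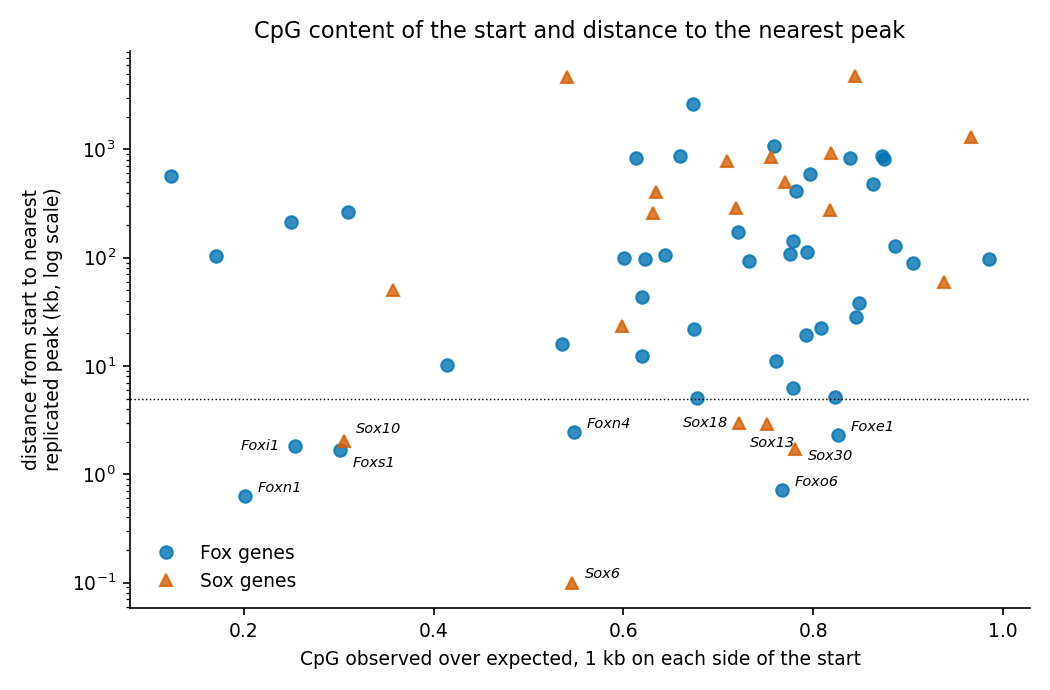
CpG observed over expected in the 2 kb around each start (x axis) against the distance from the start to the nearest replicated peak (y axis, kb, log scale; Sox6, at 0, is drawn at 0.1) for 44 Fox genes (blue circles) and 19 Sox genes (orange triangles), with genes below the 5 kb dotted line named. Of the genes below the line, Foxn1, Foxi1, Foxs1 and Sox10 lie at low CpG content, and Foxe1, Foxo6, Sox13, Sox18 and Sox30 lie above 0.6. Foxh1, Foxi2, Foxj3, Foxq1, Foxr2 and Sox15 have low CpG content and lie above the line. Most members lie above 0.6 and above the line.

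Starts of Fox and Sox genes were rich in CpG, and most peaks near them were not. Over 1 kb on each side of the start, members had a median GC content of 59.5%, against 51.2% for all genes, and a CpG observed over expected ratio (CpG count times length over the product of C and G counts) of 0.733 against 0.474. By this ratio 53 members were in the upper 50% of all genes and 10 in the lower 50%. Of the 53, 7 (13.2%) had a replicated peak within 5 kb, and of the 10, 4 (40%): Foxi1, Foxn1, Foxs1 and Sox10. For all genes the shares were 8.21% and 12.5%. Within 1 kb 2 of the 53 members (3.77%) and 1 of the 10 (10%) were marked. For all genes these shares were 1.53% in the upper 50% and 4.47% in the lower 50%. The median ratio was 0.548 for the 11 members with a peak within 5 kb and 0.757 for the other 52. The gap was among Fox genes (0.424 for 6 with a peak and 0.760 for 38 without). For Sox genes the medians were 0.722 (5 genes) and 0.737 (14 genes). Of the 6 Fox genes, Foxn1, Foxi1 and Foxs1 lay at 0.201 to 0.301 and Foxn4 at 0.548. Foxo6 and Foxe1, at 0.767 and 0.826, lay above the median of Fox genes without a peak. GC content showed no such gap, with medians of 60.7% and 59.4%, and 17.5% of members in the upper 50% of genes by GC and 16.7% of the 6 in the lower 50% had a peak within 5 kb. The 60 replicated peaks in the body or within 5 kb of the start of a member had a median ratio of 0.160, against 0.164 for all 38298 replicated peaks, and a median GC content of 49.7% against 43.0%. Of the 60, 23 were at Foxn1 and 11 at Sox6, so these medians rest largely on those genes and do not describe the members evenly.

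By place, 35 of these 60 peaks had their summit in an intron, 1 in an exon, 21 upstream and 3 downstream of the gene. Foxn1 held 21 of the intronic peaks and Sox6 held 7, and no like split is given for all replicated peaks. The median width of the 60 was 271 bp, against 278 bp for all replicated peaks, and the median −log10 q was 0.829 in both sets. Of the 60, 13 (21.7%) reached a −log10 q of 2, against 10.9% of all, and 10 of the 13 lay at Foxn1. Around member starts replicated peaks covered 0.724% of the sequence within 1 kb, 2.51% from 1 to 5 kb upstream and 1.54% from 1 to 5 kb downstream, and for all genes 0.660%, 1.08% and 0.855%. In both sets the 1 kb on each side of the start was less covered than the stretches from 1 to 5 kb.

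**Figure D4:**
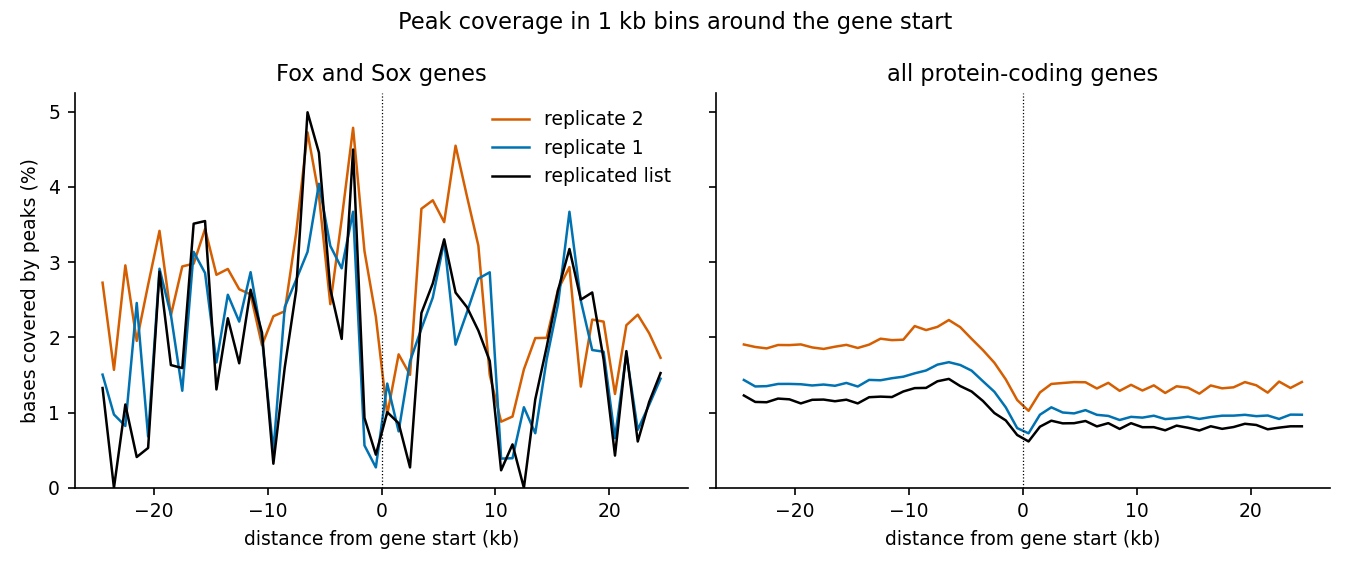
Share of bases covered by peaks (y axis, %) in 1 kb bins by distance from the gene start (x axis, kb) for the 63 Fox and Sox genes (left) and all protein-coding genes (right), in the replicated list (black), replicate 1 (blue) and replicate 2 (orange). Coverage is lowest near the start in the right panel, and the left panel rests on few genes.

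The distance from the start to the nearest peak depended on the list, and so did the order of the medians of members and all genes. In the replicated list the median was 100 kb for members and 80.3 kb for all genes, and 16 members (25.4%, all genes 18.7%) were over 500 kb away. In the other lists the median of members was the lower: 48.1 kb against 53.4 kb pooled and 39.3 kb against 46.4 kb for replicate 1. In replicate 2 it was 22.9 kb against 32.1 kb. Sox genes alone had medians above those of all genes in these lists (164 kb, 100 kb and 85.8 kb). Fox genes had medians below them (34.3 kb, 31.0 kb and 20.8 kb). Over 500 kb from a peak of replicate 2 were 6.35% of members and 8.71% of all genes. Sox3 and Sox17 were the farthest in the replicated list, at 4760 kb and 4713 kb. Sox17 was 302 kb from a peak in the pooled list and in replicate 2 and 304 kb in replicate 1, and Sox3 was 4760 kb, 2073 kb and 483 kb away in those lists. In a 25 kb window, a width added after the values were seen, 22 members (34.9%) had a replicated peak against 27.9% of all genes.

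Genes that act with these factors or are known targets of them were first read in the replicated list. In it 3% of all genes were marked within 1 kb and 10.4% had a peak within 5 kb. Of 33 partners and regulators, none was marked within 1 kb and 4 (12.1%) within 5 kb: Ctnnb1 (beta-catenin) with 1151 replicated bp, Tcf7l2, a Wnt effector, with 441 bp, Crebbp, an acetyltransferase, with 410 bp, and Sgk1, a kinase that acts on FoxO factors, with 171 bp. Of 22 targets of Sox factors none was marked within 1 kb and 4 (18.2%) within 5 kb: Col2a1, the type II collagen gene, with 1731 bp, Nes, of neural progenitors, with 601 bp, Vcam1 with 406 bp and Nanog with 291 bp. Of 28 targets of Fox factors 2 (7.14%) were marked within 1 kb and 3 (10.7%) within 5 kb. The 3 were Dll4, a Notch ligand, with 2094 bp, G6pc, of gluconeogenesis, with 954 bp and Ttr, transthyretin, with 369 bp. Replicated body peaks touched 3 partners and regulators (9.09%), 6 Sox targets (27.3%) and 6 Fox targets (21.4%), beside 11.5% of all genes. Replicate 2 marked 3 (9.09%), 1 (4.55%) and 7 (25%) of these lists within 1 kb, beside 6.28% of all genes.

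Among other developmental regulator families, 15 of 39 Hox genes (38.5%, all genes 10.4%) had a replicated peak within 5 kb. Within 1 kb 5 had one (12.8%, all genes 3%). Hox genes sit in clusters and share peaks, so these are not separate observations. Beside the 10.4% of all genes within 5 kb stood 4 of 13 Tbx (30.8%), 2 of 9 Pax (22.2%), 4 of 14 Nkx (28.6%) and 3 of 8 Lhx genes (37.5%). The others were 1 of 6 sine oculis homologs (16.7%), 1 of 15 Pou (6.67%), 1 of 17 Klf (5.88%) and none of 6 Gata and 5 Zic genes. Within 1 kb, 2 Tbx and 1 Pax gene were marked and none of the sine oculis homologs and the Nkx, Lhx, Pou, Klf, Gata or Zic genes. The lists with none hold 5 to 17 genes each, too few to tell none from the 3% of all genes. The difference between Fox or Sox genes and any of these families was not tested.

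**Figure D5:**
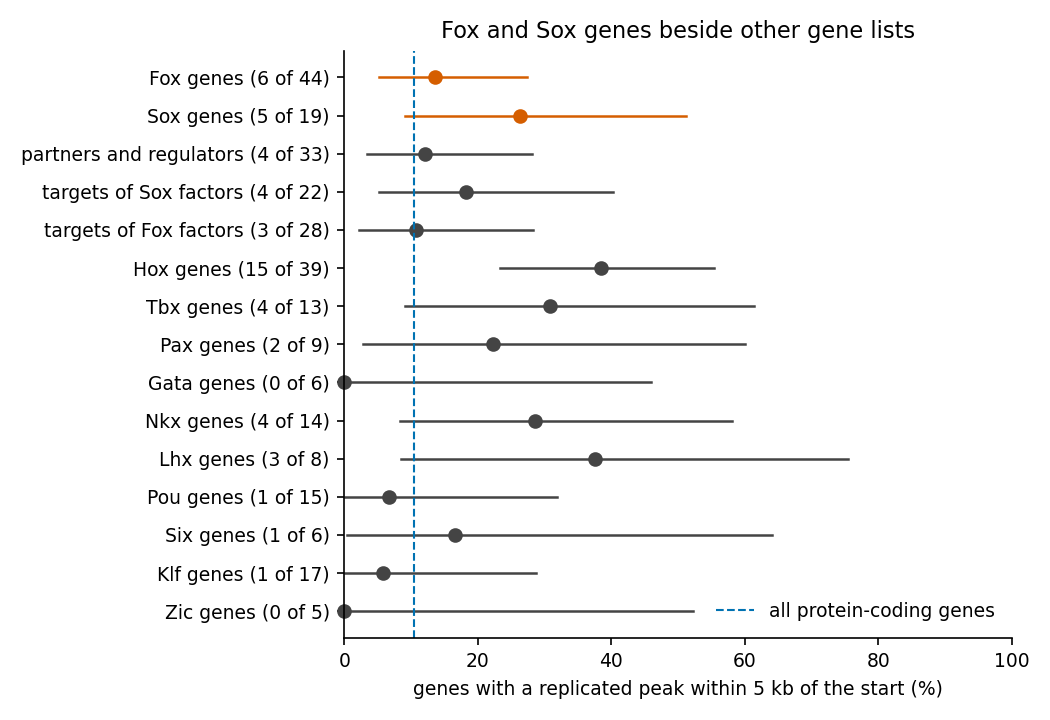
Share of genes with replicated coverage within 5 kb (x axis, %) for Fox and Sox genes (orange) and 13 other gene lists (gray), with exact 95% Clopper-Pearson intervals as lines and the share of all protein-coding genes dashed. The Hox interval lies above the dashed line, and those of Fox and Sox genes cross it.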

How the data were processed

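H3K27me3 chromatin immunoprecipitation and sequencing was done on 2 biological replicates of MEL cells, grouped by the replicate number in the labels. Per the deposited text descriptions, each replicate's mm10 peaks were called against 1 shared control alignment, the pooled list on both replicates together, and the replicated list from those 3 lists. The aligner, the peak caller and the rule for keeping peaks were not given in the sources used here, and an mm9 list was not used. For each peak the authors deposited a signal value, a score whose definition is not stated, and a −log10 q-value.

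Bases of merged peaks were counted in windows around the outermost GENCODE vM21 start and in the body, with Python 3.11.15 and numpy 2.4.6, after a check on simulated peaks. Genes with the same symbol kept the longest copy. No test compares conditions, since there is 1 group, and exact intervals used scipy 1.17.1. Depth is unknown. Alternatives were other windows, a −log10 q of 2, the upper 50% of peaks by signal value, other lists, joined peaks, and, added after seeing the data, a 25 kb window and leaving out Foxn1 or chromosome 11. The members and gene lists were chosen with earlier results of these data known. The text names all members marked within 1 kb, those highest by bases within 5 kb or in the body, those in 1 list only, chosen blood-related members, and covered genes of the lists.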

Additional observations from a re-analysis of the deposited data

How the results depend on the processing

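Values that moved by more than 1.5 times, or by more than the spread between replicates, are given here. For single replicates the whole range is given, including values that did not move, such as the member counts within 5 kb and in the body. With −log10 q of 2 or more, members numbered 0 within 1 kb, beside 129 of all genes (0.589%). Within 5 kb 4 members (6.35%: Foxi1, Foxn1, Sox10 and Sox30) stood beside 500 genes (2.28%). In the body 3 members (4.76%) stood beside 733 genes (3.35%). Member bases within 5 kb were 3235. With the upper 50% of peaks by signal value 1 member (1.59%) and 388 genes (1.77%) were marked within 1 kb. Within 5 kb the counts were 7 members (11.1%) and 1376 genes (6.28%), with 5691 member bases. A 2.5 kb window gave 9 of 63 members and 1309 of 21911 genes. At least 500 bp within 1 kb gave 0 members and 182 genes. The pooled list gave 16019 member bases within 5 kb and 0.560% of member bodies, and joining peaks 31896 bp and 0.673%. In the own list of a single replicate, which stands for leaving out the other, members ranged from 3 to 6 within 1 kb, 13 to 14 within 5 kb and 8 to 10 in the body, member bases from 12037 to 17640, the body share from 0.504% to 0.777%, and all genes from 978 to 1375 within 1 kb and 3449 to 4328 within 5 kb. Added after seeing the data, leaving out Foxn1 gave 0.107% of member bodies. Leaving out chromosome 11, also added then, gave 4 of 56 members with body peaks (7.14%, all genes 10.9%). That left 5395 member bases within 5 kb and 0.0774% of member bodies covered. A 25 kb window, likewise added, gave 22 members (34.9%) and 6110 genes (27.9%). Of 59 alternative values, 28 stayed within 1.5 times the main count or within the spread between replicates. Beyond what each alternative does by construction, the causes were not tested. No paired analysis was possible because there is only 1 group. Unknown depth limits any statement that a gene lacks the mark.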
